A study of Arabidopsis thaliana and Lactuca sativa with 158 samples.

Results

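LBD41 (AT3G02550) is a protein-coding gene on Arabidopsis chromosome 3, and 1 of the 86 targets in the capture panel of this study. Its row was found by its identifier in the tables of all reads for 112 of 112 Arabidopsis leaf libraries, each of which lists 71 or 77 targets, and its signal was above 0 in every one of them. Its levels in inflorescence and in lettuce were not analysed here. The gene was picked from these tables for its values in green and red leaves, so differences between leaf colours are given as descriptions without a test. Differences between constructs and between genotypes were tested, but the gene and the tests were chosen with earlier results of these data known. Their p-values may not be independent of that choice.

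LBD41 encodes a transcription factor of the LATERAL ORGAN BOUNDARIES DOMAIN (LBD) family, a plant-specific family that takes part in the shaping of lateral organs and in responses to nutrients and stress. In Arabidopsis seedlings LBD41 is one of the core genes whose transcripts accumulate when oxygen is scarce, under the control of group VII ethylene response factors, which are degraded while oxygen is present. In this panel the deposited target names put LBD41 in the class tasiRNA (trans-acting small interfering RNA, made when a transcript is copied into double-stranded RNA and cut by DICER-LIKE enzymes), a class that holds 2 targets, the other being AT1G63150, a gene of the pentatricopeptide repeat family. Of 10 core hypoxia genes and 7 LBD family genes listed for comparison, LBD41 itself was the 1 target in each list, so neither group can be followed alongside it. No annotated gene overlaps LBD41 in the reference gene table. RAD23C and AT3G02555 are its neighbours there.

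Long cDNA reads came from nanopore sequencing after capture with biotinylated probes. Every leaf was 4 weeks old, of the Columbia-0 ecotype, and labelled as carrying RUBY, a reporter whose enzymes make the red pigment betalain from tyrosine. With 35S::RUBY (RUBY under the cauliflower mosaic virus 35S promoter) in genotype Col-0, the libraries came from leaves labelled always red (n = 11), always green (n = 2, both of line MK017), fully red (n = 13) and fully green (n = 9), and from red parts (n = 13) and green parts (n = 13). The dcl1234 mutant, named for 4 DICER-LIKE genes that cut double-stranded RNA into small RNAs, carried the same construct and gave 8 always red libraries from lines MK072 and MK073. RUBY under the maize ubiquitin promoter (ZmUBQ) in Col-0 gave always red (n = 4), fully red (n = 9) and fully green (n = 9) leaves. The construct 35S::RUBY_3Q in Col-0 gave always red (n = 3), always green (n = 3), fully red (n = 2) and fully green (n = 2) leaves, all of line SL2621, and 35S::RUBY_fs in Col-0 gave 6 always green leaves, all of line SL2622. The 4 libraries labelled T1, 1 of each colour, and 1 library titled Col-0 Green enter no comparison. The last is labelled as carrying 35S::RUBY, but its RUBY signal was 295, against 24579 or more in the other leaf libraries. The labels do not say whether libraries with the same line and replicate number came from 1 plant, nor whether replicates are separate plants, so p-values measure the spread between these samples, which may be technical.

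The panel holds no gene that defines leaf tissue, so the labelled tissue was not checked. RUBY, compared with the colour labels, separated some groups and not others. In 35S leaves its sense signal was 207638 to 398345 in red parts and 74036 to 182915 in green parts, without overlap, and 124212 to 289902 in fully red against 24579 to 55733 in fully green ZmUBQ leaves, again without overlap. The fully red (179422 to 591511) and fully green (83516 to 239352) 35S leaves overlapped. Libraries labelled always green were not low in RUBY. With 35S::RUBY they had 198531 and 449697 against 158097 to 424227 in always red leaves, with RUBY_3Q 427053 to 801757 against 288424 to 476393, and with RUBY_fs 252760 to 831400. A library held 132111 to 3808532 reads on targets (median 597750), and 1 read was worth 0.243 to 5.54 units of signal (median 1.28). LBD41 was read on its sense strand by 1 to 29147 reads per library (median 906), with 100 reads or more in 109 libraries. The table headers number the 35S libraries in Col-0 in 2 series, here called set 1 (22 libraries) and set 2 (40 libraries). The labels call neither a batch. The ZmUBQ, dcl1234 and SL libraries were each numbered on their own, so numbering and group cannot be told apart for constructs and genotypes.

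LBD41 varied widely, by all reads, between samples that carry the same label. Full-length reads collapsed by molecular identifier, which count molecules, gave a median of 11.5 LBD41 molecules per library and 0 in 23 libraries. What part few molecules have in the spread was not tested. In these bulk samples, fewer cells that express a gene and less RNA per cell cannot be told apart. Its sense signal spanned from 0.47, which is 1 read, in the fully red leaf of ZmUBQ line MK056 replicate 1 to 12689.6 in the always green leaf of RUBY_3Q line SL2621 replicate 6. Among the 35S leaves in Col-0 the highest values belonged to 1 line and replicate number, MK040 replicate 2, with 8719.8 in red parts, 8757 in green parts, 5478 in the fully red and 9471 in the fully green leaf. Replicate 1 of the same line had 1035, 701, 341 and 1607 in the same order. MK040 replicate 2 was thus the highest library of each of these 4 groups, whatever the colour.

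**Figure D1:**
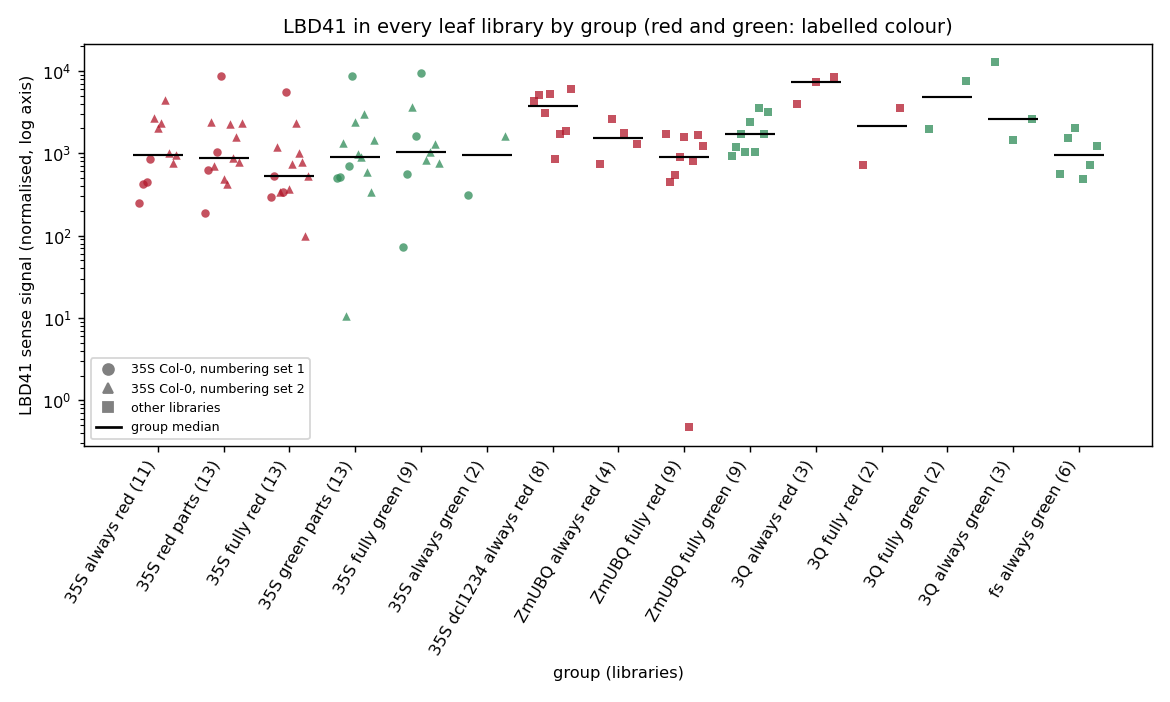
Sense signal of LBD41 in each leaf library of a compared group (log axis; T1 and Col-0 Green are not drawn), with the number of libraries in parentheses, colour of the points by the labelled leaf colour and bars at the group median. Circles and triangles are the 2 numbering sets of the 35S libraries in Col-0. The groups overlap over most of their range, and single libraries lie at 0.47 and 10.6.

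The low values were as scattered. Green parts of MK025 replicate 1 had a signal of 10.6, from 7 reads, while the red parts of the same line and number had 707 and the fully red leaf 335. The fully red leaf of MK044 replicate 3 had 98.2, against 775 in red parts, 336 in green parts and 1281 in the fully green leaf. MK016 replicate 3 was low in each sample, at 189 in red parts, 495 in green parts, 293 in the fully red and 72.7 in the fully green leaf. MK016 replicate 4 showed the reverse of this scatter, with 508 to 623 in all 4 samples, a 1.22-fold range.

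**Figure D2:**
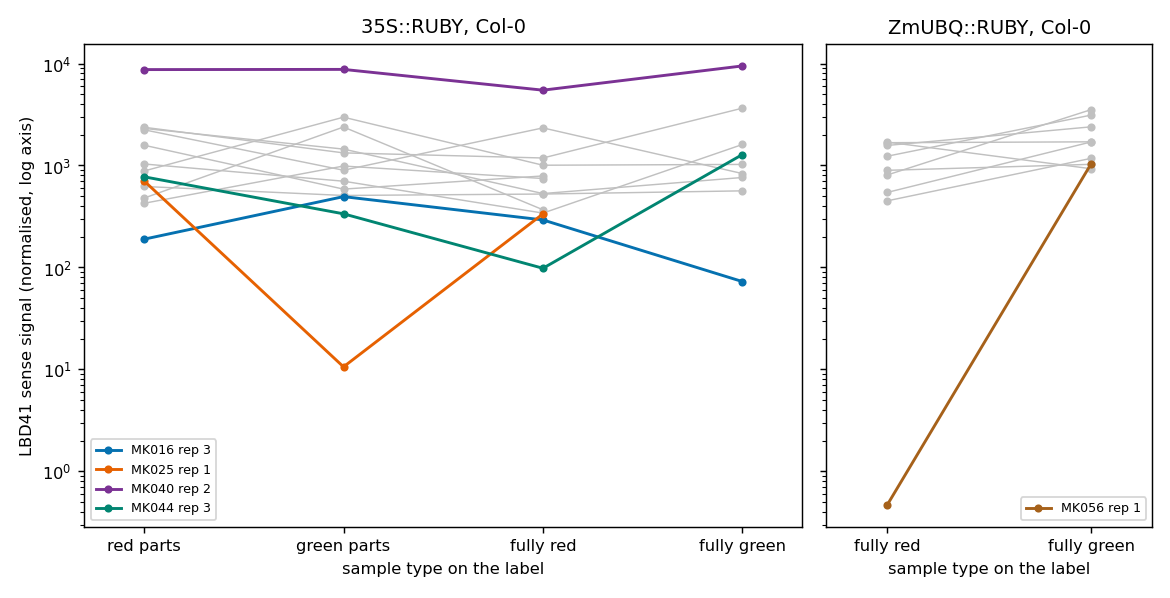
Sense signal of LBD41 (log axis) in samples that share a line and a replicate number, joined by lines, for 35S::RUBY (left) and ZmUBQ::RUBY (right). MK040 replicate 2 stays near the top in all 4 sample types, while MK025 replicate 1 and MK056 replicate 1 fall to 10.6 and 0.47 in 1 sample each.

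In groups of 8 libraries or more, the standard deviation (SD) of log2(sense signal + 1) of LBD41 ran from 0.72 in fully green ZmUBQ leaves to 3.21 in fully red ZmUBQ leaves. In 35S green parts it was 2.22, where the median of 45 other targets was 1.00 and 7 of them had a larger SD. In 35S always red leaves it was 1.27 against a median of 0.83 over 45 other targets, of which 12 had a larger SD. In dcl1234 it was 1.00 against 0.45 over 50 other targets, of which 13 had a larger SD. The SD of LBD41 was above the median of the other targets in each of the 8 groups of this size. Set beside the 10 targets whose mean level was nearest, at most 2 had a larger SD than LBD41 in any of these groups. That match is by signal, which is not per length. In ZmUBQ fully red leaves the SD rests on the single library with 1 read.

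Ordered by mean log2(sense signal + 1), the groups with more than 1 library ran from RUBY_3Q always red (12.60 ± 0.58, SD, n = 3), through RUBY_3Q fully green (11.91 ± 1.36, n = 2), RUBY_3Q always green (11.82 ± 1.62, n = 3) and dcl1234 always red (11.53 ± 1.00, n = 8), to ZmUBQ fully green (10.69 ± 0.72, n = 9). RUBY_3Q fully red (10.64 ± 1.63, n = 2), ZmUBQ always red (10.49 ± 0.77, n = 4), 35S fully green (10.07 ± 1.92, n = 9), 35S red parts (10.05 ± 1.41, n = 13) and 35S always red (10.04 ± 1.27, n = 11) followed. The lowest were RUBY_fs always green (9.89 ± 0.82, n = 6), 35S green parts (9.62 ± 2.22, n = 13), 35S always green (9.46 ± 1.68, n = 2), 35S fully red (9.33 ± 1.46, n = 13) and ZmUBQ fully red (8.92 ± 3.21, n = 9). No group in this order differed from the next by more than the pooled SD of both. The libraries in no comparison lay within the same range, with a sense signal of 1764 in Col-0 Green, 2789 and 2325 in the fully green and fully red T1 leaf of MK016, 1107 in the always green T1 leaf of MK017 and 493 in the always red T1 leaf of MK034.

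No direction of LBD41 was common to all the colour comparisons. By sense signal, fully green leaves exceeded fully red ones of the same line and number in 7 of 9 cases with 35S. With ZmUBQ they did so in 8 of 9, while 35S green parts exceeded red parts in 5 of 13. The signal of both strands in 35S green parts was 10.6 at the lowest, 898 at the median and 8795 at the highest, and in red parts 197, 883 and 8739. The medians nearly coincide and the ranges overlap. The mean difference, green minus red, was -0.40 on the log2(signal + 1) scale (standard error, SE, 0.66), while the median difference of the other targets was 0.30. It was 0.14 within set 1 (4 against 4) and -0.65 within set 2 (9 against 9), and 0.056 without MK025 replicate 1.

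Fully green 35S leaves had 76.6, 1024 and 9475 at the lowest, median and highest, and fully red ones 98.2, 581 and 5530. The fully green leaves were higher at the median and at the top, and the groups overlapped. The mean log2 difference was 0.75 (SE 0.66), against a median of 0.29 over the other targets, and 0.23 within set 1 (4 against 4) and 1.07 within set 2 (5 against 9).

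In ZmUBQ leaves the fully green group had 929, 1703 and 3559, and the fully red group 0.47, 1270 and 2007. Of the 9 fully green leaves, 4 lay above every fully red one. The mean log2 difference was 1.75 (SE 1.00), but 0.76 without MK056 replicate 1, whose fully red leaf held the single read. The other targets had a median difference of 0.12.

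Always red 35S leaves had 251, 963 and 4476 at the lowest, median and highest. Fully red leaves lay below them on average, by a log2 difference of -0.72 (SE 0.54), and the groups overlapped. The direction was not shared by the numbering sets, at 0.77 within set 1 (4 against 4) and -1.54 within set 2 (9 against 7). The 2 always green libraries, both of line MK017, had 321 and 1761, a mean log2 difference of -0.55 (SE 0.91) from always red leaves, which was -1.77 without replicate 2 and 0.68 without replicate 1. It was 0.40 when centred on the median target of each library and 0.42 when scaled to the targets outside the construct. Within the sets, 1 library each, it was -0.53 and -0.030. The other targets had a median difference of -1.01 in that comparison.

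In ZmUBQ, always red leaves had 729.9, 1293, 1754 and 2587 on the sense strand, of which 2 lay inside the range of the fully red leaves (0.47 to 1697 on that strand) and 2 above it. Fully red minus always red was -1.46 (SE 1.44) on the log2 scale, and -0.39 without MK056 replicate 1. In RUBY_3Q, the always green leaves had sense signals of 1450.3, 2578 and 12689.6, and the always red leaves 3929.8, 7207 and 8469.98. The always green leaves were both lowest and highest, and their log2 difference from the always red ones was -0.78 (SE 0.70), near the median of the other targets at -0.75. Without replicate 6 the difference was -1.68, without replicate 7 it was -0.12, and centred on the median target it was -0.18. The fully green RUBY_3Q leaves had 1974 and 7503, and the fully red ones 717 and 3552. Within each replicate number of that line the fully green leaf was the higher.

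**Figure D3:**
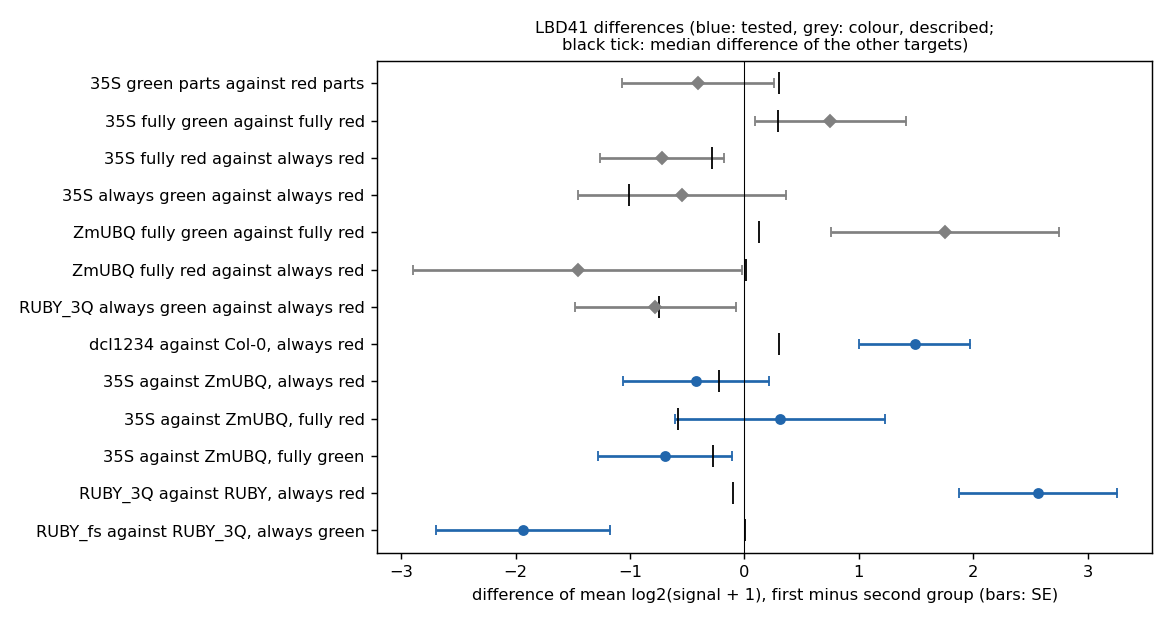
Difference of LBD41 between groups as the mean of log2(signal + 1) of the first group minus that of the second, with its standard error. Blue points were tested, grey diamonds are the colour comparisons, and black ticks mark the median difference of the other targets. The tested points farthest from 0 are RUBY_3Q against RUBY at 2.57 and RUBY_fs against RUBY_3Q at -1.94.

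The comparison of dcl1234 with Col-0 asks how the captured transcripts differ where the DICER-LIKE enzymes are mutated. In always red leaves with 35S::RUBY, LBD41 rose in dcl1234. The 8 dcl1234 libraries had signals of 949.6, 3758 and 6217 at the lowest, median and highest, against 251, 963 and 4476 in the 11 of Col-0. Of the 8, 3 lay above every Col-0 library, and the groups overlapped. On the sense strand line MK072 had 3107, 4298 and 5103, and line MK073 had 839, 1718, 1848.5, 5248 and 6045, so the median of either line was above that of Col-0 and the spread was wider in MK073. The log2 difference was 1.49 (SE 0.48, limma adjusted p = 0.0147), while the median of the other targets was 0.30. Calls were common in this comparison: 29 of 60 targets passed (48.3%), 18 higher and 11 lower, and LBD41 was 19th in order of p.

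The numbering sets of Col-0 differed in LBD41 by all reads. Sense signal was 251 to 844 in the 4 always red libraries of set 1 and 768 to 4473 in the 7 of set 2. By full-length reads collapsed by molecular identifier, set 2 was mostly the lower. Normalised signal there was 12.45 to 23.05 in set 1 and 0 to 12.89 in set 2. Against set 1 alone the log2 difference of dcl1234 was 2.73 (limma adjusted p = 0.000164), and against set 2 alone it was 0.78 (limma adjusted p = 0.106), so the call did not hold against set 2. Centred on the median target of each library it was 0.80 (limma adjusted p = 0.143), and with 1 mean for each line, which leaves 2 dcl1234 lines, 1.75 (limma adjusted p = 0.165), so the call did not hold there either.

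Full-length reads collapsed by molecular identifier, a count of molecules rather than of reads, gave 10 to 160 LBD41 molecules in dcl1234 (median 92.5) and 0 to 37 in Col-0 (median 6), with 0 in 5 of the 11. Those 5 are all of set 2. As normalised signal the range was 10.68 to 215.96 in dcl1234 and 0 to 23.05 in Col-0. Among the other developmental transcription factors of the panel, AGL20 (also called SOC1, a promoter of flowering) fell, with 27593 ± 9523 (SD, n = 8) in dcl1234 against 86990 ± 53332 (SD, n = 11), a log2 difference of -1.38 (SE 0.38, limma adjusted p = 0.00488). GRF5, a growth-regulating factor of leaf cell division, rose from 2.54 ± 5.75 (SD, n = 11) to 309 ± 279.7 (SD, n = 8, limma adjusted p = 1.23e-05). AT1G63150, of the same deposited class as LBD41, had a log2 difference of 0.095 (SE 0.29, limma adjusted p = 0.796). DCL4, the 1 of the 4 mutated genes that is a target, had 4490.3 ± 1291 (SD, n = 8) against 3462 ± 1494 (SD, n = 11), with a limma adjusted p of 0.153. The labels name no allele, and a mutant transcript may still be captured, so this signal does not check the genotype.

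LBD41 rose with RUBY_3Q relative to RUBY in always red leaves. The 3 RUBY_3Q libraries had sense signals of 3929.8, 7207 and 8469.98, and the 11 RUBY libraries 251, 963 and 4473 at the lowest, median and highest. Of the 3, 2 lay above every RUBY library and 1 below the highest. The log2 difference was 2.57 (SE 0.69, limma adjusted p = 0.0260), against a median of -0.10 over the other targets. Of 57 targets 4 passed (7.02%), and LBD41 was the 1 that was higher. The difference was 3.79 against set 1 alone (limma adjusted p = 2.51e-06) and 1.86 against set 2 alone (limma adjusted p = 0.00126). Leaving out replicate 4 or replicate 5 of RUBY_3Q ended the call (limma adjusted p = 0.214 and 0.190). All RUBY_3Q libraries are of 1 line, so line and construct cannot be told apart. The molecules collapsed from full-length reads were 65 to 122 with RUBY_3Q and 0 to 37 with RUBY, where every 0 was in set 2. As normalised signal they were 52.58 to 61.74 and 0 to 23.05.

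Between the constructs in always green leaves, RUBY_fs had LBD41 sense signals of 489.7, 961 and 2003 at the lowest, median and highest of 6 libraries, and RUBY_3Q the 3 values given above. RUBY_fs was mostly lower, and the groups overlapped between 1450.3 and 2003. The log2 difference of -1.94 (SE 0.76) did not pass the test (limma adjusted p = 0.407, unadjusted 0.0230). None of 53 targets passed (0%), with 3 at an unadjusted p below 0.05. Scaled to the targets outside the construct, LBD41 passed with the difference at -1.94 (limma adjusted p = 0.0494), and without RUBY_3Q replicate 6 the difference was -1.03 (limma adjusted p = 0.884). Each construct is 1 line here too.

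The promoter made no difference in LBD41 that passed the test at any colour. In always red leaves 35S had 251, 963 and 4476 at the lowest, median and highest, and the 4 ZmUBQ libraries ran from 729.9 to 2814, with a log2 difference of -0.43 (SE 0.64, limma adjusted p = 0.777), in a comparison where 11 of 61 targets passed (18%). Against ZmUBQ, set 1 of the 35S libraries differed by -1.67 (limma adjusted p = 0.0140) and set 2 differed by 0.28 (limma adjusted p = 0.698). In fully red leaves the log2 difference was 0.31 (SE 0.92, limma adjusted p = 0.778), with 12 of 58 targets passing (20.7%), and -0.75 (limma adjusted p = 0.301) without MK056 replicate 1. In fully green leaves it was -0.69 (SE 0.58, limma adjusted p = 0.429), with 7 of 55 targets passing (12.7%). There it was -1.08 without MK040 replicate 2 (limma adjusted p = 0.200), -0.24 when centred, -0.15 when scaled to the targets outside the construct and -1.49 with full-length molecules, and passed in none of these.

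Reads marked pA in the deposited columns made up a median of 31.4% of the sense reads of LBD41. The share was 0 in 3 libraries, the fully red 35S leaves of MK043 replicate 1, MK044 replicate 3 and MK045 replicate 3, where it may be up to 0.673%, 2.04% and 1.19% by counting. It reached 100% in the library with 1 read, whose 95% Wilson interval is 20.7% to 100%. Intervals cover counting error only, as reads are not independent molecules. Over the summed sense signal of all other targets outside the construct, the pA share of the same libraries was higher in 106 of 112. That sum weighs the targets with the most signal most, and pA shares of single other targets are not given here. In set 1 LBD41 had a pA share of 43.1% ± 11.6 (SD, n = 22) where the other targets had 59.4% ± 5.37. In set 2 it had 18.6% ± 16.7 (SD, n = 40) and the others 50.9% ± 3.57. In these sets the libraries with no full-length LBD41 molecule numbered 0 of 22 and 23 of 40, at a median of 734 and 576 sense reads. What part these differences between the sets have in the comparisons below was not tested beyond the values within each set.

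**Figure D4:**
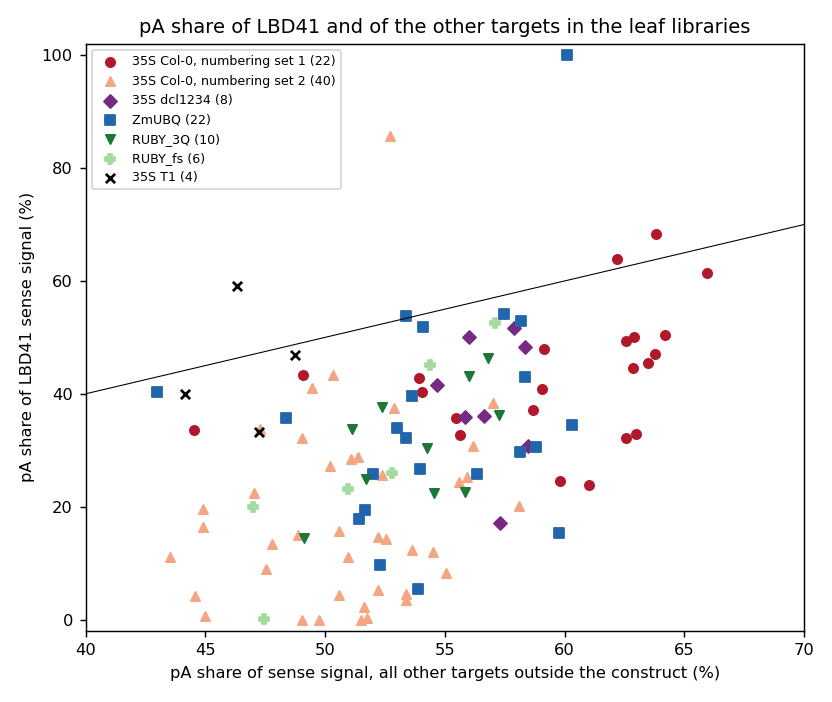
Share of sense signal marked pA in each of the 112 leaf libraries, by construct, genotype and numbering set. LBD41 is vertical (%), and the summed signal of all other targets outside the construct is horizontal (%, axis from 40 to 70). The line marks equal shares, and 106 libraries lie below it. Libraries of set 2 reach down to 0.

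By colour, the pA share of LBD41 in 35S leaves was 37.9% ± 22.7 (SD, n = 13) in green parts and 21.0% ± 16.4 (SD, n = 13) in red parts. The green parts of MK025 replicate 1 give 85.7% from 7 reads (95% Wilson interval 48.7% to 97.4%), and with libraries under a signal of 50 left out the difference fell from 16.8 to 12.9 percentage points. Green parts were higher on average in both sets, by 13.7 points in set 1 and 18.3 in set 2. Fully green leaves had 29.6% ± 17.2 (SD, n = 9) and fully red ones 22.5% ± 14.6 (SD, n = 13), a difference of 11.2 points in set 1 and -0.15 in set 2. Always red leaves had 19.8% ± 17.0 (SD, n = 11), and the 2 always green libraries 33.8% and 68.4%. ZmUBQ leaves had 31.6% ± 14.8 (SD, n = 9) when fully green, 37.8% ± 27.8 (SD, n = 9) when fully red and 38.4% ± 9.03 (SD, n = 4) when always red. The fully red mean includes the 100% of the library with 1 read: without it fully green minus fully red went from -6.25 to 1.52 points, and fully red minus always red from -0.59 to -8.36. All these groups overlapped.

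None of the 6 construct and genotype comparisons of the pA share passed after adjustment over them. In dcl1234 the share was 38.9% ± 11.6 (SD, n = 8) against 19.8% ± 17.0 (SD, n = 11) in Col-0, a difference of 19.1 points with overlapping groups (two-sided exact permutation test, p = 0.0164, adjusted p = 0.0984). The difference was 0.41 points against set 1 and 29.8 points against set 2 (exact permutation p = 0.960 and 0.000311). In always red leaves 35S minus ZmUBQ was -18.6 points (exact permutation test, adjusted p = 0.178), with 0.096 points for set 1 and -29.3 points for set 2 of the 35S libraries. The remaining differences were -15.3 points for 35S against ZmUBQ in fully red leaves, -1.94 in fully green leaves, 14.2 for RUBY_3Q against RUBY and 7.22 for RUBY_fs against RUBY_3Q, with adjusted p-values of 0.200, 0.798, 0.313 and 0.686 in exact permutation tests. Without the library with 1 read the fully red difference was -7.56. The numbering sets of the 35S libraries differed here too: set 1 and set 2 gave -3.95 and -20.4 points in fully red leaves, 13.5 and -14.3 in fully green leaves, and -4.47 and 24.9 for RUBY_3Q against RUBY (exact permutation p = 0.571 and 0.00833).

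Antisense reads of LBD41 were few in most of the 92 libraries whose tables split the strands. They were 0 in 34 libraries, up to 1% of the reads in 14, above 1% and up to 10% in 29, and above 10% in 15, with a median of 0.886%. The highest share was 44.7% (578 of 1292 reads, 95% Wilson interval 42.0% to 47.5%) in the fully red leaf of ZmUBQ line MK056 replicate 3, whose fully green partner by number had 0 of 2573 reads, which allows a share of up to 0.117%. The next was 29.1% (223 of 767 reads, 95% Wilson interval 26.0% to 32.4%) in the always red 35S leaf of MK044 replicate 2. Among 35S leaves in Col-0, the number with the most LBD41 had little of it: in MK040 replicate 2 the antisense share was 0.217% in red parts, 0.432% in green parts, 0.941% in the fully red and 0.0416% in the fully green leaf. Antisense reads were absent in 1 of 22 libraries of set 1, in 24 of 40 of set 2, in 9 of 22 of ZmUBQ and in 0 of 8 of dcl1234.

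**Figure D5:**
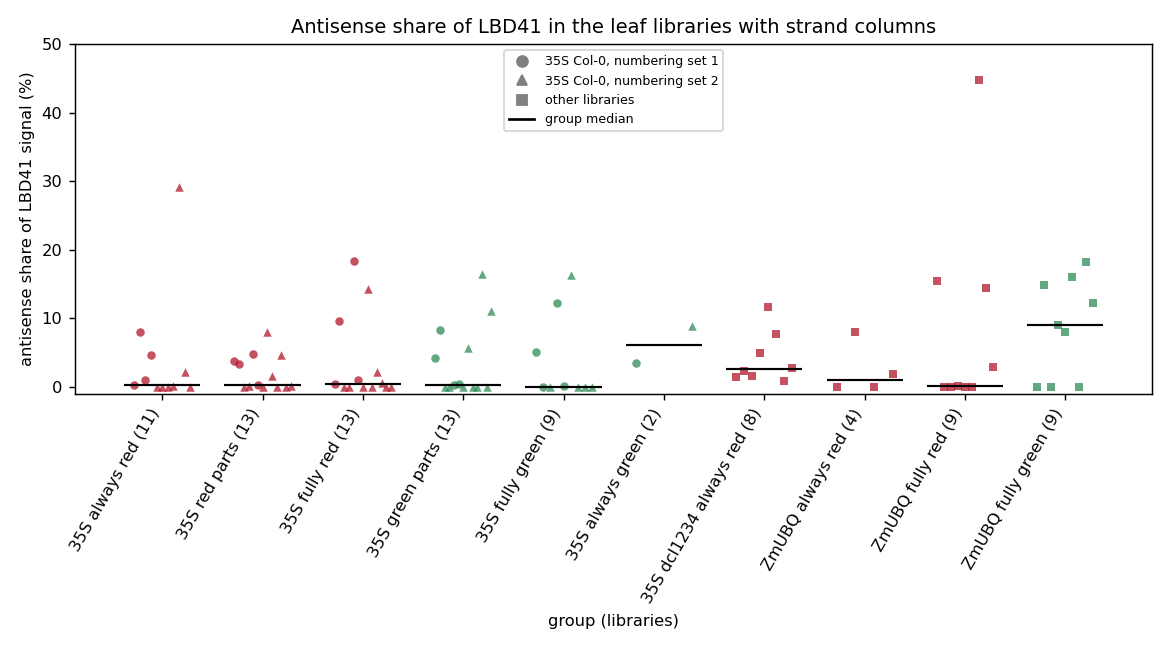
Antisense share of the LBD41 signal (%) in each library with strand columns but the one titled Col-0 Green, by group, with the group median as a bar and the numbering sets of 35S libraries as circles and triangles. Most points lie at or near 0, and single libraries reach 44.7% and 29.1%.

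By group, the antisense share was 4.11% ± 8.67 (SD, n = 11) in 35S always red leaves, 2.04% ± 2.61 (SD, n = 13) in red parts, 3.55% ± 5.38 (SD, n = 13) in green parts, 3.56% ± 6.28 (SD, n = 13) in fully red and 3.73% ± 6.28 (SD, n = 9) in fully green leaves. The SD was larger than the mean in each of these groups. ZmUBQ leaves had 8.70% ± 7.25 (SD, n = 9) when fully green, 8.63% ± 14.9 (SD, n = 9) when fully red and 2.48% ± 3.82 (SD, n = 4) when always red. In dcl1234 it was 4.14% ± 3.78 (SD, n = 8), a difference of 0.027 points from Col-0 (exact permutation test, adjusted p = 0.997). The differences between 35S and ZmUBQ were 1.63 points in always red, -5.07 in fully red and -4.96 in fully green leaves, with adjusted p-values of 0.997, 0.639 and 0.579 over the 4 exact permutation tests. Single libraries carry some of these means. Without MK056 replicate 3 the ZmUBQ fully red leaves had 4.11% ± 6.76 (SD, n = 8), and the difference of 35S from them was -0.56 points. It also moved fully green minus fully red ZmUBQ leaves from 0.070 to 4.58 points and fully red minus always red from 6.15 to 1.63. Without MK044 replicate 2 the 35S always red leaves had 1.62% ± 2.70 (SD, n = 10), and dcl1234 differed from them by 2.52 points and 35S from ZmUBQ by -0.86, neither passing (exact permutation tests, adjusted p = 0.289 and 0.918). Fully red minus always red 35S leaves moved from -0.56 to 1.94 points. Among full-length reads collapsed by molecular identifier, LBD41 had 4923 molecules over all leaf libraries, of which 64 were antisense, in 19 libraries.

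Over all 112 leaf libraries, the targets whose log2(signal + 1), less the library's median target, went most with that of LBD41 were AT2G39870 (Pearson r = 0.46), AT5G59950 (0.39), AT1G62920 (0.31), RUBY (0.30) and PDS1 (0.29), a dioxygenase of tyrosine breakdown and plastoquinone synthesis. The median over the 43 targets compared was 0.067. With group means removed the values for these 5 were 0.53, 0.45, 0.37, 0.34 and 0.30. Points of 1 library share its depth and scaling, and those of 1 line share the line, so these are descriptions of likeness.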

How the data were processed

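Tables for 112 Arabidopsis leaf libraries were used. Per the labels' protocols, TRIzol RNA was ligated to a 3' adapter, reverse transcribed by template switching, barcoded, pooled, captured and sequenced by nanopore; the submitters' processing notes name cutadapt and the build TAIR10. The authors deposited a normalised signal per target, split by strand and by pA in the file headers; their factor is not given in the sources used here. The tables of all reads of RUBY_3Q, RUBY_fs and T1 leaves list the sense strand only, so comparisons with them use sense signal and others both strands. The signal is not per length, so levels are not compared between genes, except to pick the 10 targets nearest LBD41 in mean level.

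The worth of 1 read was recovered for 112 of 112 libraries: all 23739 values are whole multiples of it within 0.006. Those reads serve counts and Wilson intervals (95%; a count of 0 allows 3 counts). Levels were compared with limma 3.58.1 (R 4.3.3; trend, empirical Bayes, log2(signal + 1)) within the 2 groups, for targets above 0 in at least the number of libraries of the smaller group, with Benjamini-Hochberg adjustment over all targets and calls below 0.05. Shares used two-sided exact permutation tests by full enumeration (Python 3.11.15, scipy), adjusted over 6 (pA) and 4 (antisense) comparisons. The fits were tested on simulated data.

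The gene, the lists and the tests were chosen with earlier results of these data known. Named targets are LBD41, RUBY, listed genes and mutated genes that are targets, and the 5 targets most alike in pattern. The neighbours in level, also in that rule, are not given because the signal is not per length. Symbols come from RefSeq's TAIR10.1 gene table, whose coordinates served only to look for genes that overlap LBD41 and for its neighbours.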

Additional observations from a re-analysis of the deposited data

Results flagged for a closer look

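In 17 checks on groups of 4 to 10 libraries, 2 values of LBD41 stood apart. The measure was the gap to the nearest other library relative to the range of the group. Values were flagged above Dixon's 95% critical value, which chance exceeds in about 1 in 20 checks. Over 17 checks, chance alone can give such flags. The sense signal of 0.47 in the fully red leaf of ZmUBQ line MK056 replicate 1 was separated on the log2(signal + 1) scale by 0.812 of the group's range, above the critical value for 9 libraries. The antisense share of 44.7% in the fully red leaf of ZmUBQ line MK056 replicate 3 was separated by 0.655 of the range of the same group.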

How the results depend on the processing

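For dcl1234 against Col-0, the log2 difference of LBD41 lost its call when centred on the median target (0.80, limma adjusted p = 0.143). It also did so with 1 mean per line (1.75, limma adjusted p = 0.165) and against numbering set 2 alone (0.78, limma adjusted p = 0.106). It kept the call with full-length molecules (4.25, limma adjusted p = 9.89e-05), where 5 Col-0 libraries, all of set 2, had 0. It kept it when scaled to targets outside the construct (1.49, limma adjusted p = 0.00461). With a pseudocount of 10 it was 1.48 (limma adjusted p = 0.0134), and the call held. For RUBY_3Q against RUBY it lost it with 1 mean per line (2.74, adjusted p = 0.736, fewer samples); it ran from 2.34 to 2.90 with 1 RUBY_3Q library left out (adjusted p 0.0481 to 0.214), lost without replicate 4 or 5. For RUBY_fs against RUBY_3Q it passed when scaled to the targets outside the construct (-1.94, adjusted p = 0.0494), and ran from -2.59 to -1.03 with a library left out; centring gave 1 called target in place of 0. For 35S against ZmUBQ in always red leaves it turned to 0.081 when scaled to targets outside the construct and to 0.28 with set 2 alone, and passed with set 1 alone (-1.67, adjusted p = 0.0140); centring gave 7 called targets in place of 11, and leaving out a ZmUBQ library gave -0.76 to -0.12. In fully red leaves it turned to -1.29 with full-length molecules, -0.020 with 1 mean per line and -0.75 without MK056 replicate 1. The cause was not tested in these cases. The colour comparisons of level moved by less than the pooled SD of both groups under every alternative run. Their sign turned for 35S green against red parts (0.46 with full-length molecules, 0.056 without MK025 replicate 1), fully red against always red (0.24 with full-length molecules) and always green against always red (0.40 centred, 0.42 scaled). With a library left out, always green against always red in 35S ran from -1.77 to 0.68, ZmUBQ fully red against always red from -1.80 to -1.15, and RUBY_3Q always green against always red from -1.68 to -0.12. Without MK044 replicate 2 the antisense share of 35S minus ZmUBQ in always red leaves turned to -0.86. Tested shares stayed on their side of the threshold when libraries with an LBD41 signal below 50 were left out. With the line and replicate number as a replicate block, the difference was -0.40 (SE 0.46) for 35S parts. It was 0.62 (SE 0.46) for fully green against fully red 35S and 1.75 (SE 0.90) for ZmUBQ. Deviations of same-numbered samples correlated above 0.1 in 9 of 13 (red and green parts) and 5 of 9 (fully red and fully green, 35S). They did so in 8 of 13 (red parts and fully red) and 4 of 9 (ZmUBQ). The main fits did not take the numbers as pairs, so their standard errors ignore any likeness between same-numbered samples. Levels correlated across numbers at a median Pearson r over the other targets of 0.66, 0.77, 0.67 and 0.15 in the same order. For LBD41, r was 0.42, 0.53, 0.72 and 0.35, and 0.18, 0.49, 0.48 and -0.15 without the 2 farthest numbers. The alternatives without a named line and replicate, by strand and by numbering set were chosen after seeing the data. The comparisons of LBD41 in inflorescence were not run. The libraries with 1 and 7 LBD41 reads held 1893196 and 550439 reads on targets, against a median of 597750. Their few LBD41 reads limit their levels and shares, and the cause of the low counts was not tested.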
